A study of Mus musculus with 22 samples.

Results

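The 9 genes described here encode subunits of the 2 Polycomb repressive complexes. They were listed by gene name, by a rule that uses no measured value, although earlier results of these data were known when the list was made. They make up 9 of the 47311 mouse genes that could be paired with the deposited transcripts. Ezh1, Ezh2, Eed and Suz12 belong to PRC2, and Bmi1, Ring1, Cbx2, Cbx7 and Cbx8 belong to PRC1. The values of all transcripts of each gene were summed in each of 22 RNA-seq libraries, and all 9 genes passed the filter on low counts in every comparison.

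PRC2 methylates a lysine in the tail of histone H3 through EZH2 or its paralog EZH1, which need EED and SUZ12 as partners. The CBX subunits of canonical PRC1 read that mark, the RING subunit with its PCGF partner BMI1 ubiquitinates histone H2A, and the marked genes are kept silent. In blood formation BMI1 and CBX7 are known for the self-renewal of stem cells, EZH1 for their quiescence and EZH2 for proliferating precursors. ARID1A is a subunit of the SWI/SNF (BAF) chromatin remodelers, which are known to oppose Polycomb complexes on chromatin, and the libraries compare cells with and without it.

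Libraries came from bone marrow of C57BL/6 mice that carried floxed Arid1a on both alleles. KO mice also carried the Mx1-Cre transgene (Arid1a f/f;Mx1-Cre+) and WT mice were sex-matched littermates without it (Arid1a f/f;Mx1-Cre-). Both genotypes, at 8 to 14 weeks of age, received 5 injections of 300 µg of poly(I:C) on alternate days, and cells were sorted 4 weeks later, so that WT cells had also met the interferon response that switches Mx1-Cre on. This promoter responds to interferon in many tissues, and deletion was not limited to the sorted cells. Long-term hematopoietic stem cells (LT-HSC, CD34- Flt3- cells of the Lin- Sca1+ Kit+ gate; 2 WT and 2 KO libraries) were sorted, as were common myeloid, granulocyte-macrophage and megakaryocyte-erythroid progenitors (CMP, GMP and MEP). For these precursors, 3 WT mice (300, 305 and 309) and 3 KO mice (301, 304 and 308) each gave all 3 populations. LT-HSC libraries were made with a kit for low input (SMART-Seq v4) and precursor libraries with TruSeq, and the LT-HSC titles carry other numbers, taken to be other animals. Population, kit and animal therefore cannot be told apart in any LT-HSC level set beside a precursor level, and no test was made between them.

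The libraries held 40804031 to 65930737 estimated counts on genes. Arid1a was below every WT library in every KO library of each population on the normalized count scale, and the log2 fold changes of KO against WT were -0.22 (CMP), -0.40 (GMP) and -0.14 (MEP), all past the test at an adjusted p of 0.1. The LT-HSC value of -1.14 did not pass (quasi-likelihood test of edgeR, Benjamini-Hochberg adjusted p = 0.421). Only exon 9 is deleted, so reads from the rest of the gene remain. All 7 LT-HSC markers exceeded 1 TPM (a level per transcript length, scaled to the same total in each library) in LT-HSC of both genotypes, with sums of 726 to 1200 TPM against at most 176 in a precursor library. The 7 GMP markers summed to 31359 to 46907 TPM in GMP and to at most 5050 elsewhere, and the 6 MEP markers to 2907 to 6014 in MEP, with 1553 and 3157 in WT LT-HSC. In LT-HSC the WT library S245 held only 27.1 TPM of the immunoglobulin gene Igkc, which reached 1838 to 7856 in the other 3. Markers of mature cells were present there too. The 5 late erythroid markers summed to 575 to 1085 TPM in WT LT-HSC and 1483 to 1715 in KO LT-HSC, against at most 609 in a precursor library. The 7 mature myeloid markers summed to 352 to 2038 in WT LT-HSC and 316 to 339 in KO LT-HSC. The part of such RNA in the LT-HSC values was not tested.

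Because Ezh2, Eed and Suz12 were all higher in MEP than in the other WT precursors on the count scale and Ezh1 was not, the region at or before the RefSeq start of these 4 PRC2 genes is shown first. Ezh2 lies on the minus strand at chr6:47530139-47595341, Eed on the minus strand at chr7:89954654-89980983, Suz12 on the plus strand at chr11:79993106-80034123 and Ezh1 on the minus strand at chr11:101191115-101226463 (GRCm38). E2F factors, which switch genes on as cells enter S phase, are known to bind the Ezh2 promoter. RefSeq windows (GRCm38.p6) from 250 bases before to 50 after the start were searched on both strands for 4 E2F-type octamers: TTTGGCGC, TTTCGCGC, TTTCCCGC and TTTGGCGG. At least 1 octamer was present in 777 of 32851 windows (2.37%). Windows were found for 8 of the 9 genes (Cbx2 is the other), and those of Ezh2 and Suz12 held a match, which is a description of letters and not of a bound site. The Ezh2 match begins 3 bases after the start and that of Suz12 219 bases before it. The gene intervals above come from another annotation (GENCODE). The RefSeq start of Ezh2 and its whole stretch below lie inside its interval, as do the last bases of the Eed stretch. The stretches below are given 5′ to 3′ on the gene's strand, with the match in capitals; those of Ezh1 and Eed end at the base before the start and hold none.
Ezh2 (chr6:47595015-47595120, minus strand): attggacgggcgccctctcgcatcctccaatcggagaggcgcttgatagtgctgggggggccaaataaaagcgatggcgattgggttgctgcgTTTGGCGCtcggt
Suz12 (chr11:79992876-79992965, plus strand): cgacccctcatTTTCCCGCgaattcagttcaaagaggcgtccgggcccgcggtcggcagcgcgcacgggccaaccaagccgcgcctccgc
Eed (chr7:89980977-89981066, minus strand): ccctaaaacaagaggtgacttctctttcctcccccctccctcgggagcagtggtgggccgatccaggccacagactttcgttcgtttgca
Ezh1 (chr11:101226464-101226553, minus strand): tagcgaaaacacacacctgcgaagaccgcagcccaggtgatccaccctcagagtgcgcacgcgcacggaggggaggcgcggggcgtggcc

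Ezh2 was the most abundant of the 9 genes in the WT precursors on the TPM scale. Its WT level was 183 ± 11.6 TPM in MEP, 164 ± 6.35 in CMP and 118 ± 1.81 in GMP (SD, n = 3 each), and 43.3 ± 5.08 in LT-HSC (n = 2). Ezh1 ran in another order, at 38.6 ± 7.59 TPM in WT LT-HSC, 19.7 ± 2.69 (CMP), 15.1 ± 0.15 (GMP) and 13.4 ± 0.73 (MEP). No neighbours in either WT order overlapped. The 2 catalytic subunits were thus closest in level in LT-HSC. The ratio of Ezh2 to Ezh1 TPM was 0.902 and 1.41 in the WT LT-HSC libraries, 7.27, 10.2 and 7.82 in WT CMP, 7.76, 7.97 and 7.70 in WT GMP, and 12.85, 15.06 and 13.02 in WT MEP. The 3 MEP libraries lay above all other WT libraries, and the CMP and GMP libraries overlapped.

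The KO libraries were likewise lowest in LT-HSC and highest in MEP. Their Ezh2 to Ezh1 ratio was 1.97 and 1.23 in LT-HSC, 6.91, 8.35 and 6.67 in CMP, 7.41, 7.82 and 7.82 in the GMP libraries, and 13.01, 16.04 and 13.72 in the MEP libraries. WT and KO libraries overlapped in every population. The KO less WT difference of the mean log2 ratio was 0.47 in LT-HSC (two-sided exact permutation test, p = 0.667, n = 2 against 2), -0.20 in CMP (exact p = 0.4, n = 3 against 3), -0.02 in GMP (exact p = 0.6) and 0.06 in MEP (exact p = 0.6). These sample numbers allow no p below 0.333 in LT-HSC and 0.1 in the precursors.

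**Figure D1:**
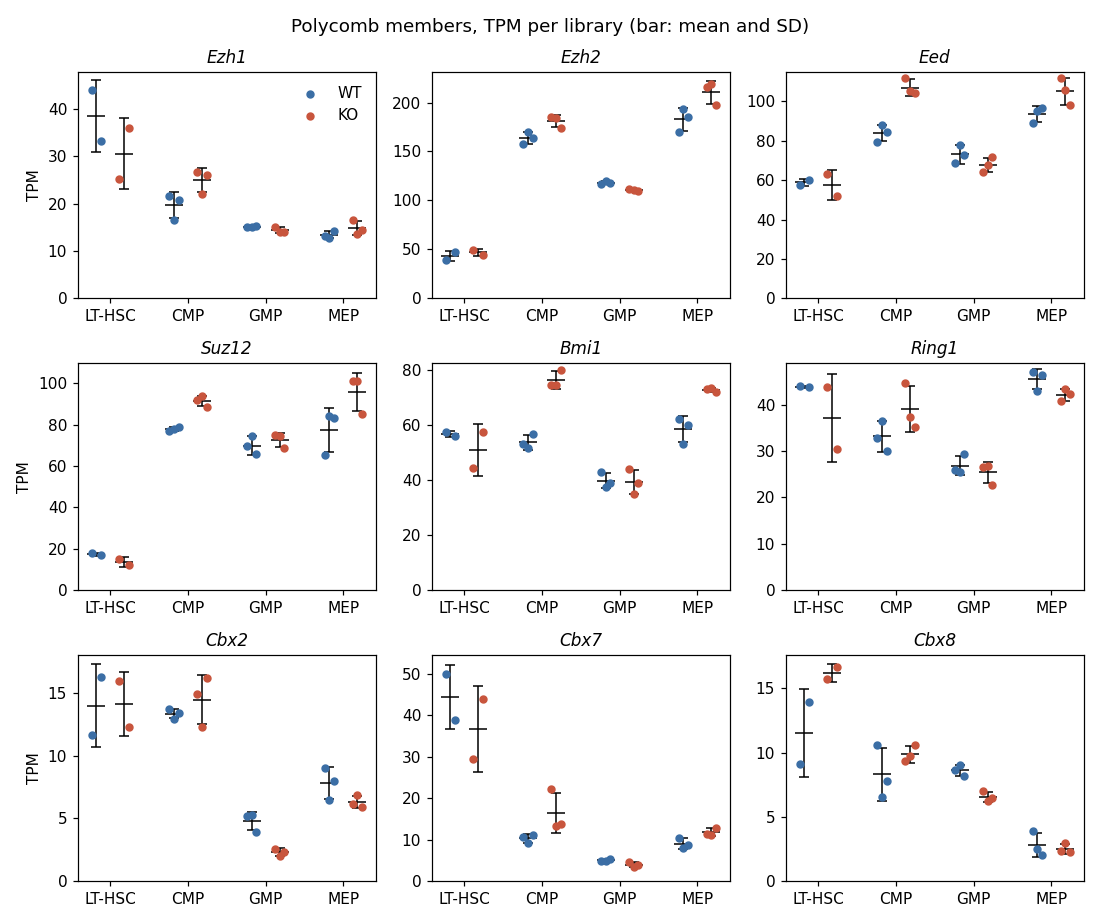
TPM of each of the 9 genes (vertical axes, each from 0) in the 22 libraries by population (horizontal axis); points are libraries, WT in blue and KO in red, and bars give the mean and SD of a group. The 4 LT-HSC libraries, made with another kit, are the lowest for Ezh2 and Suz12 and the highest for Cbx7.

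Eed and Suz12 encode the partners that EZH1 and EZH2 need for activity. Eed measured 93.7 ± 4.22 TPM in WT MEP, 84.1 ± 4.15 in CMP, 73.1 ± 4.81 in GMP and 59.0 ± 1.89 in LT-HSC, with no overlap between neighbours. Suz12 measured 78.0 ± 1.01 in CMP, 77.6 ± 10.7 in MEP, 69.9 ± 4.51 in GMP and 17.2 ± 0.70 in LT-HSC, and its MEP libraries overlapped both CMP and GMP. Over both genotypes the Suz12 range was 11.9 to 17.7 TPM in LT-HSC, against 65.3 to 101 in the 18 precursor libraries.

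Among PRC1 genes, Bmi1 (chr2:18677018-18686629), whose product is the PCGF partner of the RING proteins, was at 53.9 ± 2.76 TPM in WT CMP, 39.8 ± 2.81 in GMP, 58.5 ± 4.71 in MEP and 56.9 ± 1.11 in LT-HSC, and of these GMP alone did not overlap the others. Ring1 (chr17:34020792-34024680), 1 of the 2 genes for the ubiquitin ligase subunit, was at 45.5 ± 2.16 TPM in MEP, 43.8 ± 0.15 in LT-HSC, 33.1 ± 3.29 in CMP and 26.8 ± 2.09 in GMP, where MEP and LT-HSC overlapped. Cbx7 (chr15:79915807-79971119) stood at 44.3 ± 7.73 TPM in LT-HSC, 10.4 ± 1.05 in CMP, 9.09 ± 1.29 in MEP and 5.11 ± 0.32 in GMP, and its CMP and MEP ranges overlapped. Cbx2 (chr11:119022962-119031270) was at 13.96 ± 3.29 TPM in LT-HSC and 13.3 ± 0.37 in CMP, which overlapped, 7.82 ± 1.28 in MEP and 4.80 ± 0.74 in GMP. Cbx8 (chr11:119036305-119040969, 5034 bases beyond Cbx2 and on the other strand) was at 11.5 ± 3.42 in LT-HSC, 8.63 ± 0.43 in GMP and 8.31 ± 2.08 in CMP, and 2.83 ± 0.94 in MEP; the CMP range overlapped those of LT-HSC and GMP, and MEP lay below all others.

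Fewer cells of a type and less RNA per cell cannot be told apart in these bulk samples. TPM also moved as a whole between groups, and a single locus, Mir6236, took 3586 to 70176 TPM of a precursor library. Over 14976 genes above 1 TPM the median log2 ratio of TPM was -0.16 for WT GMP against CMP, -0.27 for MEP against CMP and -0.09 for MEP against GMP; for KO against WT it was -0.14 (LT-HSC), 0.10 (CMP), -0.14 (GMP) and 0.01 (MEP). The same medians of CPM (counts scaled by library size and edgeR's TMM factors, not by length) lay between -0.01 and 0.09. Differences between groups were therefore tested and are given below on the count scale.

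Between the WT precursors, MEP held more transcript of Ezh2, Eed, Suz12 and Ring1 than GMP. In the fit with mouse as a block, 8 of the 9 genes passed an adjusted p of 0.1 for MEP against GMP (quasi-likelihood test of edgeR, Benjamini-Hochberg adjustment over all genes), beside 72.6% of all genes tested; 7 were higher in MEP and 1 lower, beside 36.1% and 36.5% of all genes. Ezh2 was at 170, 193 and 186 TPM in the MEP of mice 300, 305 and 309 and at 117, 120 and 118 in their GMP, with no overlap. On the count scale Ezh2 was higher in MEP by a log2 fold change of 0.68 (SE 0.05), Eed by 0.55 (SE 0.06), Suz12 by 0.23 (SE 0.05), Ring1 by 0.75 (SE 0.07) and Bmi1 by 0.22 (SE 0.06). Ezh1 (-0.08, SE 0.07) did not pass the test, but it passed as lower in MEP with coding transcripts only (-0.15, adjusted p = 0.0987 in edgeR). The Bmi1 call was lost without mouse 305 (0.13, adjusted p = 0.107 in edgeR) or mouse 309 (0.20, adjusted p = 0.106) and with coding transcripts only (0.13, adjusted p = 0.102), while a length offset raised its value to 0.70.

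Against CMP, the 4 genes Ezh2 (0.40, SE 0.05), Eed (0.40, SE 0.06), Suz12 (0.26, SE 0.05) and Ring1 (0.66, SE 0.07) were also higher in WT MEP, and Ezh1 was lower (-0.27, SE 0.07). Counting the CBX genes, 7 of 9 passed the test, beside 72.4% of all genes; 4 were higher and 3 lower, beside 34.4% and 38.0% of all genes. Bmi1 was at -0.06 (SE 0.06) and did not pass; with an offset for transcript length its direction reversed, to 0.405. Its isoforms differed between these populations, with the transcript Bmi1-201 at 25.8% to 35.1% of the Bmi1 TPM in WT CMP and 14.1% to 16.1% in WT MEP. Markers of proliferation moved in the same contrast: of 25 cell cycle genes 22 were higher in WT MEP than in CMP (median log2 fold change 0.45 beside -0.04 over all genes) and 23 than in GMP (0.46 beside -0.02), and their part in the PRC2 values was not tested.

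For GMP against CMP, 6 of 9 genes passed the test and all 6 were lower in GMP, beside 45.3% of all genes called and 24.2% called lower. Ezh2 (-0.28, SE 0.05) and Bmi1 (-0.28, SE 0.06) were lower in every GMP library than in any CMP library. Ezh1 (-0.19, SE 0.07) and Eed (-0.15, SE 0.06) also passed, but the Eed call was lost in all 9 alternatives, among them the fit without the block, DESeq2, a length offset (-0.06) and the fits without mouse 300, 305 or 309. The Ezh1 call was lost without the block, in DESeq2, with coding transcripts only and without mouse 300 or 309. DESeq2 called 4 of the 9 genes, beside 3397 lower and 3595 higher of all 17476 genes tested. When a mouse was left out, 4 or 5 of the 9 were called. Suz12 (0.02, SE 0.05) and Ring1 (-0.09, SE 0.07) did not pass.

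The largest of these differences were in CBX genes. Cbx2 was at 30.4, 30.0 and 29.7 CPM in WT CMP, 13.09, 13.00 and 10.4 in WT GMP, and 23.9, 18.4 and 21.4 in WT MEP of mice 300, 305 and 309. The 3 populations did not overlap, and each pair passed the test: GMP against CMP -1.30 (SE 0.11), MEP against CMP -0.50 (SE 0.10) and MEP against GMP 0.80 (SE 0.11). Cbx7 was at 19.9, 18.4 and 21.9 CPM in CMP, 10.4, 8.39 and 13.4 in their GMP, and 24.7, 19.4 and 23.5 in MEP. GMP was lowest, by -0.91 (SE 0.11) against CMP and with MEP higher than GMP by 1.07 (SE 0.11), while MEP against CMP (0.16, SE 0.10) did not pass. Cbx8 was at 12.8, 10.4 and 11.4 CPM in CMP, 13.4, 11.7 and 12.3 in their GMP, and 5.79, 3.82 and 4.32 in MEP. Of the 9 genes, Cbx8 alone passed the test as lower in MEP than in both other populations. Its log2 fold change was -1.32 (SE 0.11) against CMP and -1.45 (SE 0.11) against GMP, while GMP and CMP (0.13, SE 0.10) were not separated by the test.

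**Figure D2:**
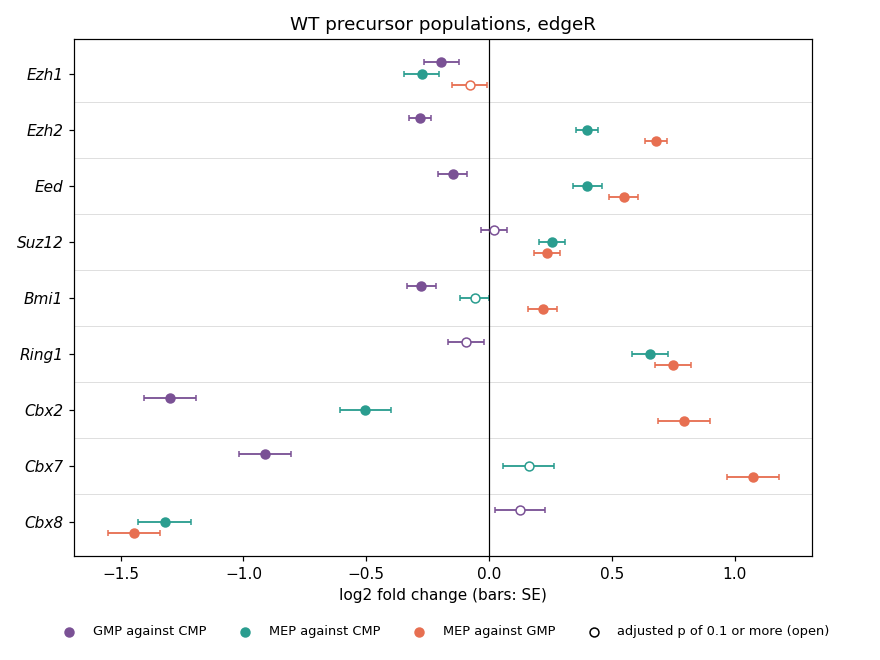
Log2 fold change between WT precursor populations for the 9 genes (horizontal axis, edgeR; bars give the SE; 3 libraries per population); filled points passed an adjusted p of 0.1 and open points did not. Ezh2, Eed and Ring1 lie right of 0 in both MEP comparisons, and Cbx8 lies left of 0 in both, at -1.32 and -1.45.

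In CMP, Bmi1 and Cbx7 rose in the KO. They were 2 of 9 genes past the test (22.2%), beside 23.4% of all genes called and 10.6% called higher. In 5 of 9 all KO libraries lay above all WT libraries, as in 16.0% of all genes. Bmi1 was at 68.8, 71.3 and 70.0 CPM in the WT libraries and at 82.2, 89.5 and 91.8 in the KO libraries. All KO libraries were above all WT libraries, with a log2 fold change of 0.32 (SE 0.06, adjusted p = 0.00434 in edgeR). Cbx7 was at 19.9, 18.4 and 21.9 CPM in WT and at 32.1, 25.6 and 28.8 in KO. Again there was no overlap, and the log2 fold change was 0.52 (SE 0.11, adjusted p = 0.0105 in edgeR). Both calls held in all 14 alternatives.

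The other 7 genes did not pass in CMP. Ezh1 was at 0.23 (SE 0.10), Eed at 0.15 (SE 0.07), Suz12 at 0.14 (SE 0.06), Ring1 at 0.10 (SE 0.07), Ezh2 at 0.03 (SE 0.05), Cbx2 at 0.02 (SE 0.09) and Cbx8 at -0.12 (SE 0.12). Without WT library 305, Eed (0.21, adjusted p = 0.0352) and Suz12 (0.16, adjusted p = 0.0855 in edgeR) passed as well. Eed also passed with a length offset in edgeR (0.25, adjusted p = 0.0312) or DESeq2 (0.25, adjusted p = 0.00693). It passed too in 1 fit of all 18 precursor libraries (0.15, adjusted p = 0.0588 in edgeR), as did Ezh1 (0.24, adjusted p = 0.0549). Suz12 passed in DESeq2 (0.14, adjusted p = 0.0987). Eed TPM, but not CPM, was higher in every KO than in every WT library. Blocked on the order of the mice in the study's tables, 5 genes passed, with Ezh1, Eed and Suz12 added. Calls over all 17214 genes rose with this block too, from 1830 higher and 2200 lower to 2517 and 2868. Lineage markers moved with genotype in these libraries: all 5 late erythroid markers were higher in KO CMP (summed TPM 30.0 to 64.4 in WT and 260 to 429 in KO), and 5 of 7 GMP markers were lower (4058 to 5050 in WT and 1812 to 2788 in KO), Mpo and Elane among them. The part of these shifts in the Bmi1 and Cbx7 values was not tested.

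In GMP the largest change of a Polycomb member in any genotype comparison was found in Cbx2, which binds the PRC2 mark and compacts chromatin. Cbx2 was at 13.09, 13.00 and 10.4 CPM in WT GMP and at 7.21, 6.20 and 6.63 in KO GMP. Every KO library was below every WT library on both scales, and the log2 fold change was -0.88 (SE 0.13, adjusted p = 0.000937 in edgeR); it stayed between -0.99 and -0.83 and past the threshold in all 14 alternatives. With Suz12 and Cbx8, 3 of 9 genes passed (33.3%), beside 33.9% of all genes; 1 was higher and 2 lower, beside 17.5% and 16.3%. All KO libraries lay above all WT libraries for 4 of 9 genes and below for 2, as for 22.6% and 19.9% of all genes.

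Cbx8 was at 13.4, 11.7 and 12.3 CPM in WT GMP and at 10.8, 10.2 and 9.62 in KO GMP. The groups did not overlap and the log2 fold change was -0.31 (SE 0.10, adjusted p = 0.0528 in edgeR), but the call was lost without WT 300 (-0.26, adjusted p = 0.131), WT 309 (-0.33, 0.103) or KO 308 (-0.27, 0.16), and also without the filter, with a length offset in edgeR or DESeq2, and in 1 fit of all 18 precursor libraries. Suz12 went the other way, from 203, 212 and 197 CPM in WT to 243, 237 and 228 in KO. Its log2 fold change was 0.20 (SE 0.05, adjusted p = 0.025 in edgeR), and the call was lost without WT 309 (0.16, adjusted p = 0.139) or KO 301 (0.17, adjusted p = 0.121). Bmi1 was at 60.7, 54.4 and 57.5 CPM in WT and 70.1, 62.1 and 65.2 in KO, which did not overlap, and at 0.18 (SE 0.07, adjusted p = 0.102 in edgeR) it did not pass. It passed without WT 300 (0.21, adjusted p = 0.0766) or KO 304 (0.22, adjusted p = 0.0752), with coding transcripts only (0.18, adjusted p = 0.0683), in 1 fit of all 18 precursor libraries (0.19, adjusted p = 0.0601) and when blocked on the order of the mice in the study's tables (0.18, adjusted p = 0.0185 in edgeR).

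Ezh1 (0.12, SE 0.06), Ezh2 (0.08, SE 0.05), Ring1 (0.04, SE 0.07), Eed (0.01, SE 0.06) and Cbx7 (-0.08, SE 0.18) did not pass in GMP. All 4 mast cell and basophil markers were lower in KO GMP, and Mcpt8 and Cpa3 are 2 of them. Their summed TPM was 733 to 1206 in WT and 116 to 168 in KO, and each exceeded 1 TPM in KO GMP. Of the GMP markers 5 of 7 were higher and 1 lower (31359 to 36850 in WT and 41647 to 46907 in KO), of the MEP markers 4 of 6 were lower (94.1 to 141 in WT and 53.2 to 64.0 in KO), and of the early myeloid markers 3 of 5 were lower (642 to 679 in WT and 389 to 477 in KO). Of the 25 cell cycle genes 11 were higher and none lower, at a median of 0.15 beside -0.01 over all genes. The part of these lists in the Cbx2, Cbx8 and Suz12 values was not tested.

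In MEP, Bmi1, Suz12 and Cbx7 rose in the KO, 3 of 9 genes (33.3%). Beside them, 29.4% of all genes were called in either direction, 2202 of 15777 as higher and 2436 as lower. For 5 of 9 all KO libraries lay above all WT libraries, as for 18.9% of all genes. Bmi1 was at 66.1, 66.1 and 70.0 CPM in WT and at 95.2, 93.8 and 78.2 in KO. KO library 308 was closest to WT, without overlap, and the log2 fold change was 0.40 (SE 0.08, adjusted p = 0.00972 in edgeR), a call that held in all 14 alternatives. Suz12 was at 221, 257 and 248 CPM in WT and at 301, 302 and 277 in KO. Its log2 fold change was 0.28 (SE 0.07, adjusted p = 0.0271 in edgeR), and without KO 301 it was 0.26 with an adjusted p of 0.1001.

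Cbx7 was at 24.7, 19.4 and 23.5 CPM in WT MEP and at 28.3, 25.9 and 29.6 in KO MEP. The groups did not overlap and the log2 fold change was 0.31 (SE 0.10, adjusted p = 0.066 in edgeR). This call was lost without KO 301 (0.30, adjusted p = 0.177), KO 308 (0.26, 0.201) or WT 309 (0.35, 0.102), and in 1 fit of all 18 precursor libraries (0.31, 0.146). The last 100 bases of the Cbx7 gene model, at chr15:79915807-79915906, are also exon of Apobec3 on the opposite strand. Whether the libraries kept strand is not given in the sources used here, and reads from those bases cannot be told apart.

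Ezh2 (0.11, SE 0.05), Ezh1 (0.13, SE 0.07), Eed (0.09, SE 0.04), Ring1 (-0.03, SE 0.05), Cbx2 (-0.28, SE 0.11) and Cbx8 (-0.36, SE 0.18) did not pass in MEP. Without WT 305, Ezh2 (0.12, adjusted p = 0.0993), Cbx2 (-0.37, adjusted p = 0.0211) and Cbx8 (-0.48, adjusted p = 0.0775 in edgeR) passed. Ezh2 also passed with a length offset in edgeR (0.18, adjusted p = 0.0681) or DESeq2 (0.18, adjusted p = 0.0342). In 1 fit of all 18 precursor libraries Ezh2 (0.11, adjusted p = 0.094) and Cbx8 (-0.36, adjusted p = 0.0851 in edgeR) passed. Cbx2 passed in DESeq2 without (-0.27, adjusted p = 0.0906) and with a length offset (-0.34, adjusted p = 0.0539). Late erythroid markers were higher in KO MEP for 4 of 5 genes (summed TPM 114 to 308 in WT and 350 to 609 in KO), and 3 of 4 megakaryocyte markers were higher (15.4 to 29.2 in WT and 55.5 to 78.2 in KO). Of the 6 MEP markers 2 were higher and 2 lower, and their sum was 4614 to 6014 in WT and 2907 to 3607 in KO. LT-HSC markers summed to 3.84 to 14.6 TPM in WT and 15.5 to 18.1 in KO MEP, with 2 of 6 tested called higher and 0 lower. Of the 25 cell cycle genes 5 were higher and 1 lower, at a median of 0.12 beside -0.002 over all genes. Of the 4 mast cell and basophil markers 3 were lower (3.49 to 7.02 TPM in WT and 1.02 to 2.55 in KO). The part of these lists in the values of Bmi1, Suz12 and Cbx7 was not tested.

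**Figure D3:**
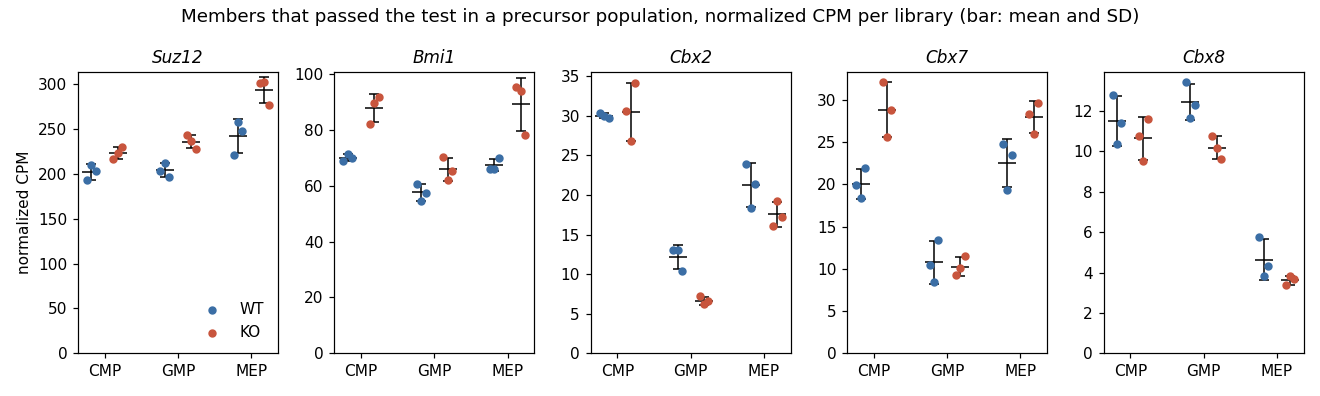
Normalized CPM (vertical axes, each from 0) of the 5 genes that passed the test in a precursor population; points are libraries, WT in blue and KO in red, and bars give the mean and SD (n = 3 per group). Cbx2 falls from 10.4 to 13.1 CPM in WT GMP to 6.20 to 7.21 in KO GMP, and Bmi1 is above WT in all KO libraries of CMP, GMP and MEP.

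In LT-HSC, 0 of 9 genes passed in edgeR, beside 0.0792% of all genes, and 0 had an unadjusted p under 0.05; DESeq2 also called 0. The largest difference was in Cbx8, at 11.3 and 17.3 CPM in WT and 22.3 and 22.9 in KO, with a log2 fold change of 0.66 (SE 0.40, adjusted p = 0.876 in edgeR). On the CPM scale Eed and Bmi1 were also higher in both KO libraries than in both WT libraries, at 0.34 (SE 0.29) and 0.32 (SE 0.27), while 16.9% of all genes showed such a separation upward. On the TPM scale both overlapped, with log2 ratios of the means of -0.03 for Eed and -0.16 for Bmi1, and a length offset brought Bmi1 to 0.09. With SEs of 0.27 to 0.40, changes of the size seen for Suz12 and Bmi1 in the precursors were not detectable at this replication. Ezh2 was at 45.4 CPM in WT S245, 79.8 in WT S269, 82.0 in KO S244 and 79.1 in KO S270. Its value of 0.36 (SE 0.32) was 0.03 without S245, and without WT S269 it was 0.79 (adjusted p = 0.0697 in edgeR). Without S245 the value of Cbx8 was 0.40, that of Eed 0.11 and that of Bmi1 0.26. S245 held the fewest estimated counts of all libraries (40804031). Yet 27191 genes reached 10 counts in it, against 18504 to 22407 in the other LT-HSC libraries. Cell cycle genes were also lowest in WT S245, with a summed TPM of 1522, against 2880 in WT S269 and 2726 to 3061 in KO. Of these genes 25 of 25 had a fitted value above 0, with 0 called in edgeR (2 with an unadjusted p under 0.05 and 0 in DESeq2).

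**Figure D4:**
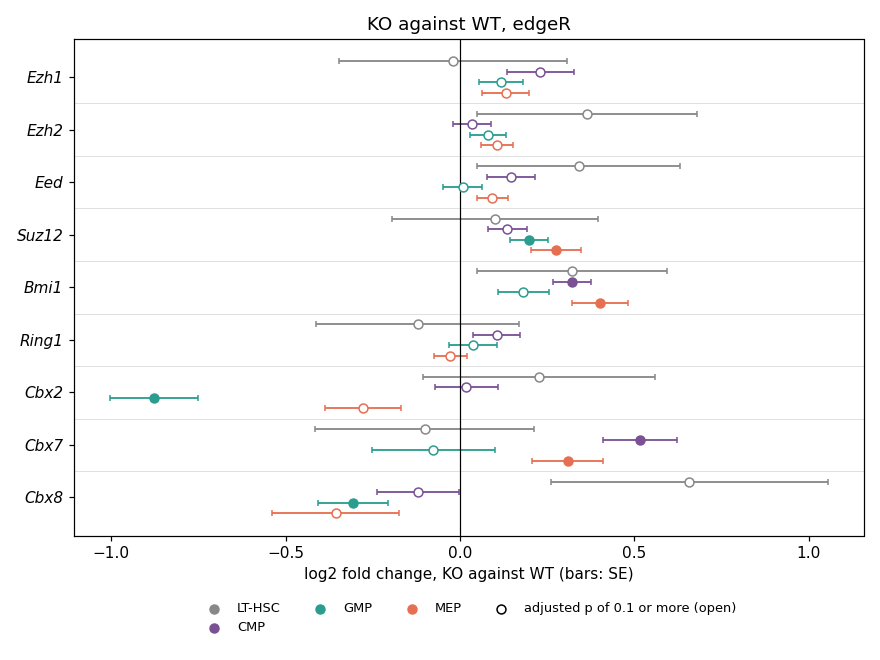
Log2 fold change of KO against WT (horizontal axis, edgeR; bars give the SE) for the 9 genes in 4 populations; filled points passed an adjusted p of 0.1 and open points did not. Cbx2 in GMP, at -0.88, is farthest from 0, and the LT-HSC values have the widest bars.

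Whether the genotype effect differed between populations was tested as an interaction in 1 fit of the 18 precursor libraries with mouse as a block. For GMP less CMP, 2 of 9 genes passed, beside 21.0% of all genes: Cbx2 at -0.88 (SE 0.16, adjusted p = 0.00209) and Cbx7 at -0.57 (SE 0.15, adjusted p = 0.0173 in edgeR). For MEP less GMP, 1 of 9 passed, beside 26.8% of all genes, and this was again Cbx2 (0.59, SE 0.16, adjusted p = 0.0204 in edgeR). For MEP less CMP, 0 of 9 passed, beside 13.0% of all genes, and 0 had an unadjusted p under 0.05 in edgeR. The fall of Cbx2 in GMP thus differed from its values in both other populations, and the Cbx2 calls held in all 10 alternatives. The Cbx7 call was lost without mouse 301 (-0.41, adjusted p = 0.105). The Suz12 interactions were 0.07 (SE 0.08), 0.14 (SE 0.08) and 0.07 (SE 0.08), and those of Bmi1 -0.13 (SE 0.11), 0.07 (SE 0.11) and 0.21 (SE 0.11), in the order GMP less CMP, MEP less CMP and MEP less GMP, so that the calls of these genes in single populations were not shown to differ between them.

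A list of 47 other Polycomb genes was read in the same fits. In KO CMP, 4 were higher and 5 lower of 46 tested (19.6%, beside 23.4% of all genes). In GMP 9 were higher and 10 lower of 46 (41.3%, beside 33.9%), and in MEP 10 were higher and 9 lower of 45 (42.2%, beside 29.4%). The median log2 fold changes in CMP, GMP and MEP were -0.01, 0.05 and -0.003 beside -0.003, -0.01 and -0.002 over all genes. In LT-HSC 0 of 47 passed in edgeR (4 with an unadjusted p under 0.05, and 0 in DESeq2). Pcgf5, a PCGF protein that takes the place of BMI1 in a variant PRC1, rose in all 3 precursors, by a log2 fold change of 0.55 (CMP, SE 0.09), 0.60 (GMP, SE 0.07) and 0.68 (MEP, SE 0.07). Its mean CPM went from 33.6 ± 2.32 to 49.4 ± 5.55 in CMP, from 45.6 ± 2.06 to 69.7 ± 3.05 in GMP and from 19.9 ± 0.88 to 32.0 ± 0.88 in MEP. The KO libraries were above the WT libraries in each.

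Cbx6, a CBX gene outside the 9, fell in KO GMP (-0.80, SE 0.07) and KO MEP (-0.65, SE 0.08), from 74.8 ± 4.68 to 43.3 ± 3.13 CPM and from 107 ± 10.3 to 67.9 ± 5.43 CPM. Sfmbt2, an MBT-domain Polycomb gene, fell in KO CMP (-1.41, SE 0.26) and KO GMP (-1.84, SE 0.23), but from levels of only 2.73 ± 0.21 and 2.67 ± 0.18 CPM. In GMP, Rybp (0.58, SE 0.12) and Bcorl1 (0.51, SE 0.10), parts of variant PRC1, and Phf19 (0.54, SE 0.06), a PRC2 accessory subunit that binds methylated histone H3, rose, and Auts2 (-0.95, SE 0.12), a partner of PCGF5, fell. In MEP, Bcorl1 (0.76, SE 0.10) and Scml2 (0.78, SE 0.07) rose. All of these had an adjusted p under 0.1 in edgeR and no overlap between WT and KO libraries in CPM, though Auts2 overlapped in TPM.

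Genes that Polycomb complexes silence in most adult tissues were close to 0 in the precursors. Of a list of 24 such regulators (Gata4, Sox17, Cdkn2a and others), 0 exceeded 1 TPM in any CMP, GMP or MEP library, and their summed TPM was 0.44 to 1.35 in the WT and 0.47 to 1.91 in the KO precursors. Most fell below the filter, with 4 of 24 tested in CMP and 2 in GMP and in MEP. In edgeR 0 of them passed against WT (1 in CMP with an unadjusted p under 0.05, 0 in GMP and in MEP; DESeq2 called 0). In LT-HSC the sum lay between 1.75 and 14.03 TPM for WT libraries and between 4.24 and 5.83 for KO libraries, and 5 of the genes exceeded 1 TPM in WT and 3 in KO. Of the 6 tested there, with log2 fold changes of -1.80 to 5.28, 0 passed in edgeR (0 with an unadjusted p under 0.05, and 0 in DESeq2).

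Across the 18 precursor libraries, Eed and Ring1 varied most like Ezh2, with Pearson r of 0.98 and 0.95 for log2 CPM, and Cbx8 varied inversely (r = -0.93). These libraries come from 6 mice and 3 populations, so such values mainly restate the order of the populations. Over all 13187 genes above 1 TPM, the genes nearest to Ezh2 included Isca1 and Stxbp3 (r of 0.99 each), those nearest to Eed were Hs6st1, Acsl5 and Ptdss2, and those nearest to Ring1 were Aatf, Phf10 and Ntmt1 (0.99 each). Suz12 was nearest to Ddx3x, Kpna1 and Fam45a (0.95 to 0.96) and Bmi1 to Hmgb1, Prr13 and S1pr4 (0.91 to 0.92). The genes nearest to Cbx2 included Ip6k1 (0.99) and Tnik (0.97). Cbx7 was nearest to Tsc22d1, Rad9b and Ccdc171 (0.96 to 0.97) and Cbx8 to Galnt11, Spin1 and Zfp764 (0.99 each). Ezh1 had the least close neighbours, Cdkn2aip, Card6 and Mgea5 (0.90 to 0.92).

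Part of the signal of these genes came from transcripts that code for no protein. Protein-coding transcripts held 60.9% to 72.9% of the Ezh2 TPM in the precursors and 65.8% to 85.0% in LT-HSC. The retained-intron transcript Ezh2-213 alone took 18.8% to 22.3% in WT MEP, 23.5% to 24.9% in KO MEP and at most 2.62% in LT-HSC. For Cbx8 the only coding transcript held 36.4% to 69.7% of the TPM in the precursors, and for Cbx2 the coding share was 85.9% to 100%. Counting coding transcripts alone left the Cbx2 fall in GMP past the threshold.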

How the data were processed

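Reads (100 bp, paired) were quantified by the authors with kallisto 0.43.1 against Ensembl 84 mouse transcripts, with mm10 named per the labels; the deposited values are estimated counts and TPM per transcript. Both were summed per gene through GENCODE vM21 (114200 of 115088 transcripts, 99.2%; 0.233% to 0.363% of counts could not be paired), and estimated counts were rounded to whole numbers. Tests used edgeR 4.0.16 in R 4.3.3 (TMM, filterByExpr, quasi-likelihood test), with Benjamini-Hochberg adjustment over all genes tested and a threshold of 0.1. KO and WT were compared in each population apart. Population contrasts (9 WT libraries) and interactions (18 libraries) had the mouse as a block, because the 3 precursor populations with 1 number were taken to come from 1 animal. Deviations from the group means correlated at 0.30 on average over 18 pairs of libraries with the same number. The lowest was -0.22, for CMP and GMP of 300. The mean for other numbers was -0.14, which is tied to the first mean because deviations cancel within a group, and is no separate contrast. Genes were named by rule: the 9 members and Arid1a; other Polycomb genes past the threshold with an absolute log2 fold change of at least 0.5 and no overlap between genotypes, at most 6 each way; and the 3 genes nearest to each member by Pearson r of log2 CPM (prior count 0.5). Some results under this rule are not reported here. The members and lists were chosen with earlier results of these data known. Alternatives were DESeq2 1.42.0, other size factors, no filter, length offsets, coding transcripts only, 1 fit of 18 libraries, other blocks and leaving out each library. Replicates differed by more than counting noise; whether LT-HSC libraries hold 1 or several mice is not given in the sources used here.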

Additional observations from a re-analysis of the deposited data

Results flagged for a closer look

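The genotype effect on 2 members differed between populations by the interaction test. For Cbx2 the difference was -0.88 for GMP less CMP and 0.59 for MEP less GMP, and for Cbx7 it was -0.57 for GMP less CMP. Cbx8 was higher in both KO LT-HSC libraries than in both WT ones (log2 fold change 0.66) and lower in all KO GMP libraries than in all WT ones. The LT-HSC value did not pass the test (adjusted p = 0.876 in edgeR), and the GMP call held in 7 of 14 alternatives. The difference between the 2 populations was not tested.

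Of the other Polycomb genes named, for GMP less CMP the difference was -1.11 for Auts2, 0.72 for Bcorl1, -0.73 for Cbx6, 0.34 for Phf19, 0.61 for Rybp and -0.66 for Scml2. For MEP less CMP it was 0.96 for Bcorl1 and -0.59 for Cbx6. For MEP less GMP it was 1.26 for Auts2, -0.81 for Rybp and 1.01 for Scml2. All passed an adjusted p of 0.1 in edgeR, and values that did not pass are left out. These genes had been named for their genotype effect in the same libraries, so the differences are no independent result. Of 46 other Polycomb genes tested, 13 (28.3%) passed for GMP less CMP, 7 (15.2%) for MEP less CMP and 14 (30.4%) for MEP less GMP. The shares of all genes were 21.0%, 13.0% and 26.8%.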

How the results depend on the processing

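Leaving out 1 library moved the number of members called from 0 to a range of 0 to 1 in LT-HSC, from 2 to a range of 2 to 4 in CMP, from 3 to a range of 1 to 4 in GMP and from 3 to a range of 1 to 6 in MEP. Leaving out 1 mouse gave 4 to 5 for WT GMP against CMP, 7 for MEP against CMP and 7 to 8 for MEP against GMP, and 1 to 3, 0 and 1 to 2 interaction calls for GMP less CMP, MEP less CMP and MEP less GMP. The lowest counts came without WT 309 in GMP and without KO 301 in MEP, and the highest in MEP (6) came without WT 305. Calls over all genes moved alongside. In GMP they went from 2676 lower and 2874 higher of 16383 to 2158 and 1971 of 16809 without WT 309. In MEP they went from 2436 and 2202 of 15777 to 1570 and 1470 of 16275 without KO 301. Without WT 305 they were 2836 and 2521 of 16351. In MEP, DESeq2 with a length offset called 5 members, beside 2302 lower and 2156 higher of all 14550 genes. For CMP, 1 fit of 18 libraries called 4 members, beside 2044 lower and 1885 higher of all 18523 genes. An offset for length gave 2 interaction calls for MEP less GMP and reversed Bmi1 for WT MEP against CMP (0.405). Over single members, 412 of 441 values with a library or mouse left out and 512 of 549 under other alternatives kept their side of the threshold and, where called, their direction. Without the mouse block, 4, 7 and 8 members were called in the 3 WT contrasts and 2, 0 and 1 interactions; blocked on the order of the mice in the study's tables, 5, 4, 3 and 0 were called in CMP, GMP, MEP and LT-HSC. That order is no pairing given by the labels. Deviations of WT and KO libraries so paired correlated at 0.47 on average over 9 pairs (lowest -0.05). Deviations cancel within a group, so the mean of -0.23 for other pairs is tied to that value and is no separate contrast. Over all genes the LT-HSC calls (12 lower and 6 higher) rose to 127 and 77 in DESeq2, to 177 and 109 without the filter, to 78 and 37 with the block and to 933 and 1583 without WT S269. The KO less WT difference of the mean log2 ratio of Ezh2 to Ezh1 moved by less than the replicate spread when it was taken from CPM in place of TPM and from coding transcripts only. The ratio itself differs between the 2 scales: in WT LT-HSC the mean CPM was 62.6 for Ezh2 and 103 for Ezh1. With 2 or 3 libraries a group the precision is limited, and the causes of these changes were not tested.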
